A study of Mus musculus with 28 samples.

Results

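The 10 genes described here belong to the integrated stress response that the transcription factor ATF4 directs: Atf4, Atf5, Cebpb, Nupr1, Trib3, Ppp1r15a, Chac1, Sesn2, Asns and Psat1. They were taken by symbol from a table of normalized counts with 35973 rows that carry a gene symbol, and all 10 were found. All 10 also reached the mean normalized count of at least 10 that 15773 genes in all passed.

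Polyadenylated RNA came from mouse retina, in a study that looked for compounds acting on astrocyte reactivity. Each animal had a crush injury of its right optic nerve (ONC) and kept an intact left one as control (CTRL), so crush and side of the head cannot be told apart. Mice were then injected intraperitoneally each day for 7 days with vehicle or with RGFP966, which inhibits histone deacetylase HDAC3, at 10 mg/kg, and retinas were collected 7 days after the crush. The 26 libraries analysed were read as both eyes of 13 mice, paired by the treatment, sex and replicate letter in their titles. Of these, 6 are vehicle CTRL and 6 vehicle ONC retinas (2 females and 4 males). Another 7 are RGFP966 CTRL and 7 RGFP966 ONC retinas (3 females and 4 males). The treatment label of the vehicle mice also carries 10 mg/kg, and was read here as vehicle without drug. The labels name no strain, age, transgene or mutation for any group.

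Many kinds of stress converge on phosphorylation of the translation initiation factor eIF2, which lowers general protein synthesis while the mRNA of ATF4 is translated more efficiently. ATF4 is therefore controlled to a large part at translation, which RNA sequencing does not measure, and its activity is commonly read from the mRNAs of its target genes. These include enzymes and transporters for amino acids, regulators that feed back on the pathway, and further transcription factors. In retinal ganglion cells, the neurons whose axons form the optic nerve, ATF4 and related stress factors are known to be activated after axon injury.

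ATF4 binds DNA together with partner factors of the C/EBP family, at a composite sequence known as the C/EBP-ATF response element, whose core can be written TGATGNAA. Both strands of RefSeq promoters (GRCm38.p6, 250 bases before to 50 after the transcription start) were searched, and all 10 genes were matched, with 12 promoters between them. The core was found for 4 of the 10 genes (Chac1, Nupr1, Asns and Trib3), and in 3.97% of all 32851 promoters. The narrower form TTGCATCA, which is contained in the core, was found for Chac1 and Nupr1 and in 0.895% of all promoters. The palindromic cAMP response element TGACGTCA, which does not overlap with the core, was found for Ppp1r15a and in 1.79% of all promoters. A match is a run of letters and not a measured binding site. The sequences are shown because Chac1 and Nupr1 are the members with the largest log2 fold changes after crush, while Asns and Trib3 hold the core and did not pass the test. No core match was found for Cebpb, Atf5 or Sesn2, which rose in the average over both treatments. Capitals mark the match, and positions count from the RefSeq start. GENCODE begins Nupr1 at 126630861 and Asns at 7693254, upstream of their RefSeq starts. The matches of these genes therefore lie inside the GENCODE gene. The 250 bases upstream of the start are given for Chac1 (chr2:119350992-119351241, plus strand, match starting at position -193 from the start), Nupr1 (chr7:126625471-126625720, minus strand, match at -110) and Asns (chr6:7693210-7693459, minus strand, match at -23).
Chac1: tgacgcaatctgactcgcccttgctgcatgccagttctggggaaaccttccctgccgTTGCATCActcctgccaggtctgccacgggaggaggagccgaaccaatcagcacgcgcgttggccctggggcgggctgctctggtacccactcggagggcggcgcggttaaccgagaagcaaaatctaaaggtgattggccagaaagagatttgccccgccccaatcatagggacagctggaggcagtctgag
Nupr1: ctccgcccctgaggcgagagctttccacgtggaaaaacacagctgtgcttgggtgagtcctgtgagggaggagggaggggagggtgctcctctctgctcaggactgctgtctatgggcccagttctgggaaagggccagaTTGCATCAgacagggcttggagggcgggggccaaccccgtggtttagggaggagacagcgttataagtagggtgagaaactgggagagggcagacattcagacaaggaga
Asns: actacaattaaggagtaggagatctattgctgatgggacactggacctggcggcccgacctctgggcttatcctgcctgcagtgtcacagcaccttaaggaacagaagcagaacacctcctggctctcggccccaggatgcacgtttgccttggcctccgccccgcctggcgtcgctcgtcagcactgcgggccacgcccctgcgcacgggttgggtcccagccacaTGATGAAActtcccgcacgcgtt
For 3 more genes only 28 bases around the match are given. In Trib3 (chr2:152344029-152344056, minus strand) the match begins at position 15 after the RefSeq start, and lies upstream of the start that GENCODE gives, 152344032. In Ppp1r15a (chr7:45526263-45526290, minus strand) the cAMP response element begins at -12. Atf3 (chr1:191183426-191183453, minus strand), another bZIP factor of the response described further on, carries TTGCATCA at -110.
Trib3: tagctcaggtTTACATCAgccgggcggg
Ppp1r15a: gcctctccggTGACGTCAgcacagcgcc
Atf3: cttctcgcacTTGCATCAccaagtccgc

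Normalized counts summed to 17700000 to 21900000 per library (median 18800000), with 19135 to 20170 genes above 0. Principal component 1 took 17.5% of the variance. Its scores were positive and negative among both crushed and uncrushed retinas, from -52.2 in RGFP966 ONC male C to 34.9 in RGFP966 ONC female A. All female retinas had positive scores on it (6.6 to 34.9), whereas male retinas ran from -52.2 to 23.5. On principal component 2, which took 15.2% of the variance, all 13 crushed retinas had positive and all 13 uncrushed retinas negative scores. One library, RGFP966 CTRL female A, has a free-text description that mentions crush while its title and condition say uncrushed. Its level of Nefl, a ganglion cell neurofilament, was 5236 and its level of Gfap, an intermediate filament of reactive glia, was 296, inside the range of uncrushed retinas and outside that of crushed ones for both genes. It was kept as uncrushed, and without it the number of members called was unchanged in every comparison (4 for crush in vehicle mice, 2 in RGFP966 mice, 5 averaged).

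In crushed eyes part of the set passed the test as higher and none of it as lower. In vehicle mice, 4 of the 10 genes rose (Chac1, Nupr1, Cebpb and Atf5) and 0 fell, at an adjusted p under 0.05 in limma with Benjamini-Hochberg adjustment over all 15773 genes. Of all genes tested, 3.69% rose and 1.65% fell. In RGFP966 mice 2 of 10 rose (Nupr1 and Cebpb) and 0 fell, against 3.34% and 1.33% of all genes. Averaged over both treatments, 5 of 10 rose, with Sesn2 added to the other four, and 0 fell, against 6.78% and 4.98% of all genes. The median log2 fold change of the 10 genes was 0.32 in vehicle mice, 0.21 in RGFP966 mice and 0.20 averaged, where all genes had -0.01 in each. In whole retina, a change in the number of cells of a type and a change in RNA per cell cannot be told apart. The labels do not name sequencing or extraction batches.

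**Figure D1:**
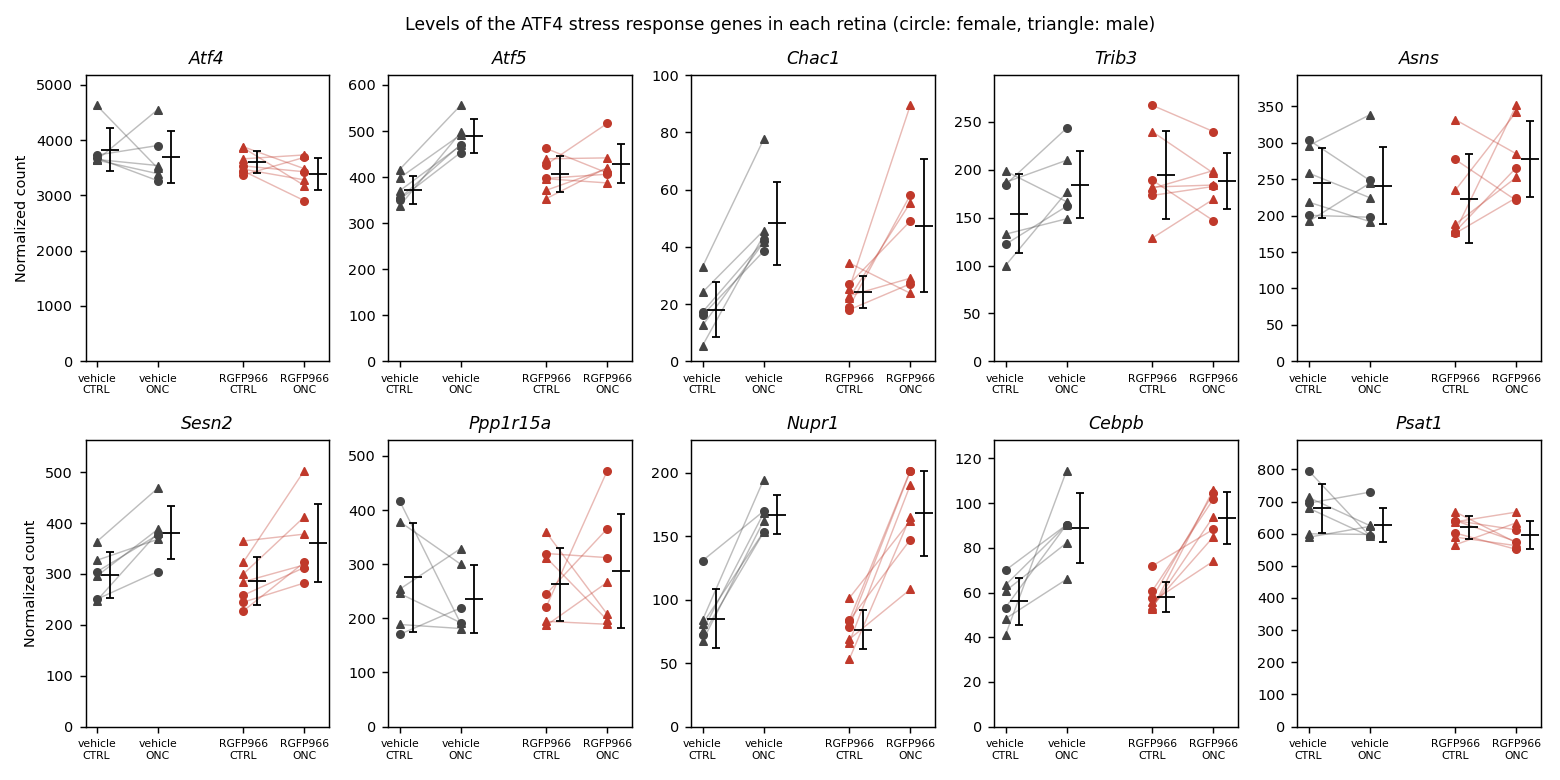
Normalized count (vertical axis, from 0) of each of the 10 genes in every retina of the 4 groups; thin lines join both eyes of a mouse, and black bars are the mean ± SD. Nupr1 and Cebpb climb from CTRL to ONC in all 13 mice, while the lines of Atf4, Ppp1r15a, Asns and Psat1 run in both directions.

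Among the transcription factors, the mRNA of ATF4 itself did not pass the test. Atf4 (chromosome 15, 80255184 to 80257541, plus strand, GRCm38) lay at 3635, 3664 and 4629 (lowest, median, highest normalized count) in vehicle CTRL and at 3266, 3516 and 4549 in vehicle ONC retinas. In RGFP966 mice it lay at 3368, 3532 and 3878 without crush and at 2904, 3426 and 3731 with it. The groups overlapped throughout, and the gene was higher in the crushed eye of 4 of 13 mice. The log2 fold change was -0.06 ± 0.08 (SE) in vehicle mice, with a 95% interval of -0.21 to 0.10 and a limma adjusted p of 0.81. In RGFP966 mice it was -0.09 ± 0.07, with an interval of -0.24 to 0.05 and an adjusted p of 0.61. Rescaling all libraries to one total made the vehicle value 0.06, still below the median of all genes under that scaling, which moved to 0.10.

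Atf5, a bZIP factor related to ATF4 whose mRNA is likewise favoured for translation under stress, rose with crush in vehicle mice. Its normalized counts (chromosome 7, 44812256 to 44816658, minus strand) were 337, 362 and 416 (lowest, median, highest) in vehicle CTRL and 453, 481 and 556 in vehicle ONC retinas, so that these groups did not overlap. The rise was 0.40 ± 0.08 on the log2 scale (SE, limma adjusted p = 0.0028) and was present in 6 of 6 mice. In RGFP966 mice the counts were 353, 397 and 462 without crush and 387, 419 and 517 with it. There the groups overlapped, and 5 of 7 mice were higher in the crushed eye. The log2 fold change was 0.08 ± 0.08, with an interval of -0.08 to 0.24 and an adjusted p of 0.73. Atf5 shares 4.11% of its 1993 exonic bases with Nup62 and Il4i1 on the opposite strand, and the library kit named in the labels is not stated to keep strand. Neither neighbour passed the test for crush (Nup62 log2 fold change 0.04 in vehicle mice, Il4i1 -0.41).

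Cebpb, which encodes a C/EBP factor that can pair with ATF4, rose under both treatments. Its normalized counts (chromosome 2, 167688915 to 167690418, plus strand) were 41.0, 57.0 and 70.0 in vehicle CTRL and 65.9, 90.4 and 115 in vehicle ONC retinas. With RGFP966 they were 52.6, 55.9 and 71.9 without crush and 74.0, 94.0 and 106 with it. Only the vehicle groups overlapped, with 5 of 6 crushed retinas above every uncrushed one, and the crushed eye was higher in 13 of 13 mice. The log2 rise was 0.66 ± 0.15 in vehicle mice (limma adjusted p = 0.0046) and 0.68 ± 0.14 in RGFP966 mice (adjusted p = 0.0016). With only the vehicle groups in the fit, the adjusted p in vehicle mice was 0.061. Of the 1504 exonic bases of Cebpb, 20.7% are shared with Tmem189 on the opposite strand, for which reads cannot be told apart without strand. Tmem189 did not pass the test, with log2 fold changes of 0.16 in vehicle and -0.26 in RGFP966 mice.

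Nupr1 encodes a small stress-induced chromatin protein and known ATF4 target, and its core element is among the promoters printed earlier. Its normalized counts (chromosome 7, 126623249 to 126630861, minus strand) were 67.4, 78.2 and 131 in vehicle CTRL and 153, 165 and 195 in vehicle ONC retinas. RGFP966 mice had 53.0, 78.4 and 101 without crush and 108, 165 and 202 with it. Every crushed retina lay above every uncrushed one within its treatment, and the crushed eye was higher in 13 of 13 mice. The log2 rise was 1.0 ± 0.16 in vehicle mice (limma adjusted p = 0.00014) and 1.13 ± 0.15 in RGFP966 mice (adjusted p = 7.9e-06).

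The enzyme with the largest change was Chac1, a gamma-glutamylcyclotransferase that breaks down glutathione and is a frequently used marker of ATF4 activity. Its normalized counts were low (chromosome 2, 119351229 to 119354381, plus strand): 5.47, 16.6 and 33.0 in vehicle CTRL against 38.5, 43.0 and 77.6 in vehicle ONC retinas, without overlap. In RGFP966 mice they were 17.98, 22.9 and 34.3 without crush and 23.8, 49.0 and 89.5 with it. These groups overlapped: 4 of 7 crushed retinas lay above all uncrushed ones, and 3 crushed retinas (female B, male A and male B) stayed between 23.8 and 29.0. The log2 rise was 1.5 ± 0.33 in vehicle mice (limma adjusted p = 0.0046). Without vehicle CTRL male D, the library at 5.47, it was 1.21, the lowest value on leaving out 1 library and still past the threshold. In RGFP966 mice the log2 fold change was 0.84 ± 0.31, with an interval of 0.20 to 1.47, which missed the threshold (adjusted p = 0.14). Giving libraries weights by their spread around the fit brought the RGFP966 value to 0.93 with a limma adjusted p of 0.025. No other alternative took it past the threshold, and leaving out 1 library gave limma adjusted p of 0.065 to 0.32. The crushed eye was higher in 12 of 13 mice, RGFP966 male A being the exception.

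Sesn2 encodes a leucine sensor that restrains the growth kinase complex mTORC1. Its normalized counts (chromosome 4, 132492032 to 132510501, minus strand) were 247, 299.6 and 363 in vehicle CTRL and 304, 379 and 468 in vehicle ONC retinas. In RGFP966 mice they were 227, 284 and 365 without crush and 282, 323 and 503 with it. The groups overlapped under both treatments, but the crushed eye was higher in 13 of 13 mice. The log2 fold change was 0.36 ± 0.11 in vehicle mice (limma adjusted p = 0.058) and 0.33 ± 0.10 in RGFP966 mice (adjusted p = 0.067), neither past the threshold. With the mouse as a replicate block, which sets each crushed eye against its own fellow eye, the adjusted p was 0.040 and 0.044. With the mouse as a random effect it was 0.067 and 0.077, again short of the threshold. Averaged over both treatments Sesn2 rose by 0.34 ± 0.08 (adjusted p = 0.0022).

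The feedback regulators Trib3 and Ppp1r15a did not pass the test under either treatment. Trib3, a pseudokinase that binds ATF4 and limits its activity, had normalized counts (chromosome 2, 152337422 to 152344032, minus strand) of 99.97, 159 and 199 in vehicle CTRL and 149, 172 and 244 in vehicle ONC retinas. In RGFP966 mice they were 128, 182 and 267 without crush and 147, 184 and 240.0 with it. All groups overlapped. The log2 fold change was 0.28 ± 0.18 in vehicle mice (interval -0.08 to 0.64, limma adjusted p = 0.46) and -0.03 ± 0.16 in RGFP966 mice (interval -0.36 to 0.31, adjusted p = 0.97).

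Ppp1r15a, also known as Gadd34, encodes a regulatory subunit of the phosphatase that removes phosphate from eIF2. Its normalized counts (chromosome 7, 45522916 to 45526268, minus strand) spread widely inside each group, from 170.1 to 417 in vehicle CTRL (median 249.7) and from 181 to 329 in vehicle ONC retinas (median 206). In RGFP966 mice they ran from 187 to 359 without crush (median 245) and from 189 to 473 with it (median 267). The groups overlapped, and 5 of 13 mice were higher in the crushed eye. The log2 fold change was -0.19 ± 0.23 in vehicle mice (interval -0.67 to 0.29, limma adjusted p = 0.78) and 0.09 ± 0.22 in RGFP966 mice (interval -0.35 to 0.54, adjusted p = 0.91), so that changes of that size were not detectable with these animals.

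The amino acid enzymes also stayed short of the threshold. Asns, asparagine synthetase, had normalized counts (chromosome 6, 7675169 to 7693254, minus strand) of 192, 238 and 304 in vehicle CTRL and 192, 235 and 338 in vehicle ONC retinas. RGFP966 mice had 176, 188 and 332 without crush and 221, 266 and 352 with it. The vehicle groups covered nearly one range, whereas 4 of 7 uncrushed retinas of RGFP966 mice lay below all crushed ones. For crush, the log2 fold change was -0.03 ± 0.17 in vehicle mice (interval -0.37 to 0.32, limma adjusted p = 0.97) and 0.33 ± 0.15 in RGFP966 mice (interval 0.02 to 0.65, adjusted p = 0.30). The difference between these crush effects was 0.36 ± 0.23 (interval -0.11 to 0.83, limma unadjusted p = 0.13). The response of Asns is therefore not shown to differ between the treatments.

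Psat1, the aminotransferase of serine synthesis, was among the steadiest members. Its normalized counts (chromosome 19, 15904678 to 15947337, minus strand) were 589, 687 and 796 in vehicle CTRL and 592, 610.0 and 729 in vehicle ONC retinas. With RGFP966 they were 565, 637 and 668 without crush and 551, 575 and 667 with it. The groups overlapped. Crush values on the log2 scale were -0.11 ± 0.08 in vehicle mice (interval -0.27 to 0.04, limma adjusted p = 0.52) and -0.06 ± 0.07 in RGFP966 mice (interval -0.20 to 0.09, adjusted p = 0.78).

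**Figure D2:**
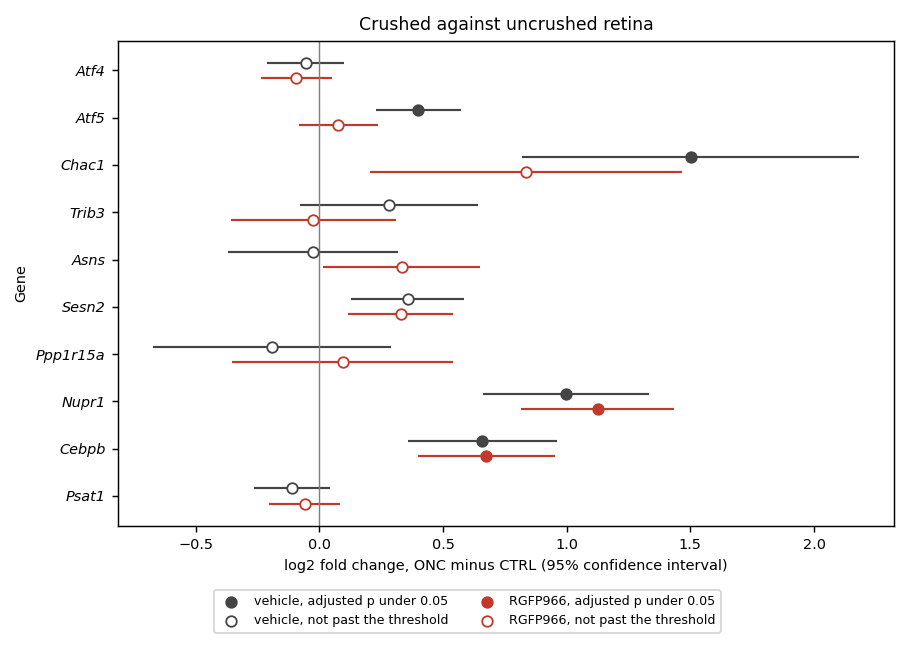
Crush effect on each gene as log2 fold change, ONC minus CTRL (horizontal axis), with its 95% confidence interval, in vehicle mice (grey) and RGFP966 mice (red); filled points passed an adjusted p of 0.05. Chac1 and Nupr1 lie farthest to the right, from 0.84 to 1.5, while the intervals of Atf4, Trib3, Ppp1r15a and Psat1 include 0 under both treatments.

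The order of the 4 groups differed between genes. For 5 genes (Atf5, Chac1, Sesn2, Nupr1 and Cebpb) both crushed groups had higher means than both uncrushed ones. The share of all genes with that order was not counted, so this number is a description only. For Nupr1 and Cebpb the step between crushed and uncrushed groups exceeded the larger SD of the neighbouring groups. For Atf5, vehicle ONC (490 ± 36.3, SD, n = 6) stood above the next group, RGFP966 ONC (429 ± 42.2, SD, n = 7), by more than either SD. For the other 7 genes no pair of neighbouring groups differed beyond the larger of its SDs. Replicate spread itself varied: the coefficient of variation within a group was 5.65 to 12.8% for Atf4 and 5.77 to 11.3% for Psat1, but 22.9 to 52.8% for Chac1 and 25.8 to 36.5% for Ppp1r15a.

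RGFP966 did not move any of the 10 genes past the threshold. In crushed eyes 0 of 10 were called against 0% of all genes, in uncrushed eyes 0 of 10 against 0%, and for the difference between the crush effects of RGFP966 and vehicle mice 0 of 10 against 0%, all by limma with Benjamini-Hochberg adjustment. At an unadjusted p under 0.05 the numbers were 1, 0 and 1 of the 10 genes, and 403, 782 and 327 of the 15773. The single gene was Atf5 in both cases. It was lower in RGFP966 ONC than in vehicle ONC retinas, with a log2 difference of -0.19 ± 0.08 (interval -0.36 to -0.03, limma unadjusted p = 0.024, adjusted p = 1.0). The crush effect on Atf5 was smaller in RGFP966 than in vehicle mice by a log2 difference of -0.32 ± 0.11 (interval -0.56 to -0.09, limma unadjusted p = 0.0087, adjusted p = 1.0). That difference therefore fails the correction for the number of genes.

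The intervals set how large a drug effect could have gone unseen. In crushed eyes the log2 difference between RGFP966 and vehicle was -0.03 for Nupr1 (interval -0.35 to 0.29), 0.06 for Cebpb (-0.23 to 0.35) and -0.06 for Sesn2 (-0.28 to 0.16). It was -0.11 for Chac1 with a much wider interval, -0.77 to 0.55. For Chac1 the crush effects under the treatments differed by -0.67 ± 0.45 (interval -1.59 to 0.26, limma unadjusted p = 0.15), so the rise called in vehicle but not in RGFP966 mice is not shown to differ between them. Without vehicle CTRL male D, the lowest Chac1 library, that difference was -0.37. In uncrushed eyes the highest values were 0.56 ± 0.32 for Chac1 (interval -0.10 to 1.21; 0.27 without vehicle CTRL male D) and 0.33 ± 0.17 for Trib3 (interval -0.01 to 0.68). For crush in males against females, 0 of 10 genes were called against 0% of all, and 0 of the 10 genes and 382 of all had an unadjusted limma p under 0.05.

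**Figure D3:**
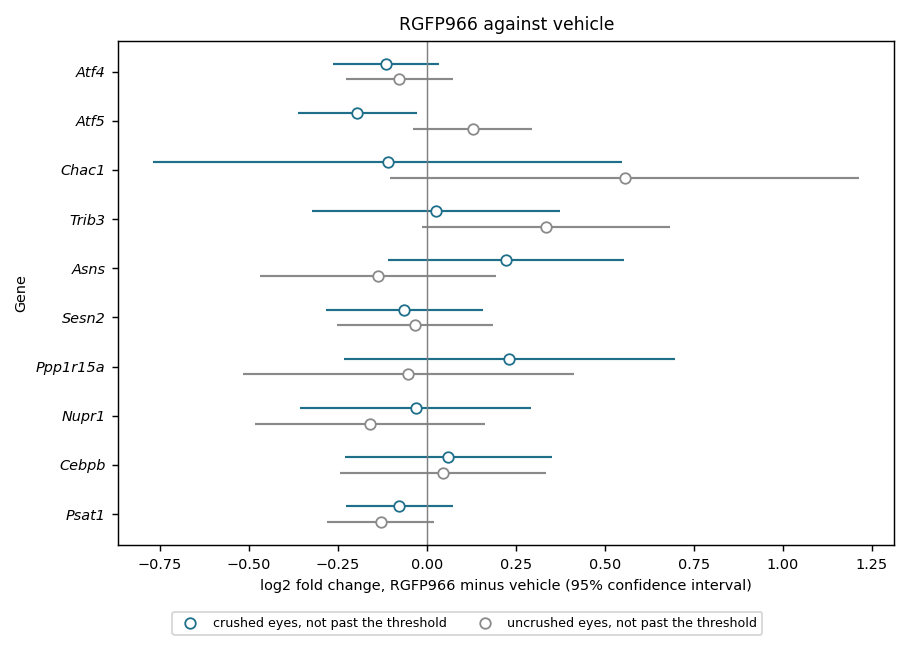
Difference between RGFP966 and vehicle retinas for each gene as log2 fold change with its 95% confidence interval, in crushed eyes (blue) and uncrushed eyes (grey). All points are open, since no adjusted p was under 0.05, and in crushed eyes the interval of Atf5, -0.36 to -0.03, is the one that leaves out 0.

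Cell type markers moved with crush too. Of 8 markers of retinal ganglion cells, 6 fell in each treatment, and the summed normalized count of the list ran from 7760 to 13000 in vehicle CTRL, 3410 to 4640 in vehicle ONC, 9010 to 12000 in RGFP966 CTRL and 3250 to 5260 in RGFP966 ONC retinas. Of 8 markers of microglia and macrophages, 7 rose in each treatment, with sums of 828 to 1620, 2510 to 4810, 1090 to 1370 and 2340 to 4240 in the same order. Of 5 astrocyte markers, 3 rose in vehicle and 2 in RGFP966 mice, with sums of 569 to 1070, 1780 to 3220, 665 to 954 and 1500 to 2160. Of 8 Müller glia markers, 5 rose and 1 fell in vehicle mice and 3 rose and 1 fell in RGFP966 mice, with sums of 66900 to 77300, 64800 to 85400, 65900 to 76900 and 63500 to 88200. Of 6 rod markers, 3 fell in vehicle and 2 in RGFP966 mice, with sums of 1490000 to 2310000, 1130000 to 1520000, 1380000 to 1660000 and 1050000 to 1590000. None of these markers was at 0 throughout a group. The part of these shifts in the crush effects on the stress response genes was not tested. Lens and red blood cell markers, which can enter at dissection, varied widely within groups (lens sums up to 56700 in RGFP966 CTRL retinas). By limma 0 of them passed the test for crush, also at an unadjusted p under 0.05. Median red blood cell sums were 4710 in vehicle CTRL (388 to 7780), 724 in vehicle ONC, 895 in RGFP966 CTRL and 681 in RGFP966 ONC retinas. All 5 red blood cell markers had log2 values below 0 for crush in vehicle mice (median -1.45) and for RGFP966 in uncrushed eyes (median -1.25).

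The neighbouring branches of the response were followed with 6 gene lists. Of 11 genes for eIF2 kinases, eIF2, eIF2B and a phosphatase partner, 1 rose under each treatment and 0 fell. Of all genes tested, 3.69% rose in vehicle and 3.34% in RGFP966 mice. The 1 gene was Eif2ak2, the kinase PKR that double-stranded RNA activates. Its median normalized count was 172 in vehicle CTRL and 282 in vehicle ONC retinas, and 190 and 281 in the RGFP966 groups, and the log2 rise was 0.81 ± 0.15 in vehicle mice (limma adjusted p = 0.00049) and 0.52 ± 0.14 in RGFP966 mice (adjusted p = 0.019).

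Of 13 measured partner factors and other ATF4 targets (14 listed), 2 rose in vehicle and 3 in RGFP966 mice, and 0 fell in either. The shares of all genes that rose were 3.69% and 3.34%. Atf3, a bZIP factor induced by axon injury and the carrier of TTGCATCA printed earlier, had normalized counts of 102 to 206 in vehicle CTRL and 202 to 386 in vehicle ONC retinas. It rose by 1.15 ± 0.19 in vehicle mice (limma adjusted p = 0.00014) and 1.29 ± 0.18 in RGFP966 mice (adjusted p = 9.7e-06) on the log2 scale. Cdkn1a, a cell cycle inhibitor that p53 also controls, rose by 1.21 ± 0.28 (adjusted p = 0.0066) and 1.04 ± 0.26 (adjusted p = 0.012). Herpud1, which acts in the removal of misfolded ER proteins and whose promoter also holds TTGCATCA, rose by 0.31 ± 0.08 in RGFP966 mice (limma adjusted p = 0.012). Its vehicle value was 0.18 ± 0.08 (limma adjusted p = 0.27). The searched promoters of Cdkn1a, Eif2ak2 and the enzymes Phgdh and Shmt2, described next, held no match to the core. From these lists only genes that rose were looked up by name. A link between match and rise was therefore not tested. Ddit4, an inhibitor of mTORC1, fell by 0.21 on the log2 scale in the average over both treatments (adjusted p = 0.018). Ddit3, which encodes CHOP and was singled out after its values were seen, had log2 fold changes of 0.07 ± 0.07 and 0.04 ± 0.07 (adjusted p = 0.74 and 0.85).

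Of 18 genes of amino acid synthesis and transport, 0 passed in vehicle mice, 2 rose in RGFP966 mice and 3 rose in the average, with 0 falling. Among all genes 3.69%, 3.34% and 6.78% rose, in the same order. In vehicle mice 5 of the 18 had an unadjusted limma p under 0.05, as had 2556 of all 15773 genes. Phgdh, the entry enzyme of serine synthesis upstream of Psat1, had log2 fold changes of 0.40 ± 0.18 in vehicle mice (limma adjusted p = 0.25) and 0.57 ± 0.16 in RGFP966 mice (adjusted p = 0.041). Slc7a5, a transporter of large neutral amino acids, had 0.32 ± 0.11 (adjusted p = 0.12) and 0.36 ± 0.11 (adjusted p = 0.043). Shmt2, the mitochondrial serine hydroxymethyltransferase, rose by 0.18 ± 0.06 in the average (adjusted p = 0.049).

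In the remaining 3 lists 1 gene passed the test. Of 12 aminoacyl-tRNA synthetases, which charge tRNAs and include several ATF4 targets, 0 passed in the average, and 3 had an unadjusted limma p under 0.05, as had 3742 of all 15773 genes. The median log2 fold change of the list was 0.01. Of 19 ER chaperones and genes of the unfolded protein response, 1 fell in the average, against 4.98% of all genes: the chaperone Hsp90b1 with -0.13 ± 0.04 (limma adjusted p = 0.027). The list's median was 0.00. Of 8 mitochondrial stress genes, 0 passed, 0 had an unadjusted p under 0.05, and all 8 values lay below 0, with a median of -0.04. All genes tested had a median of -0.01.

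**Figure D4:**
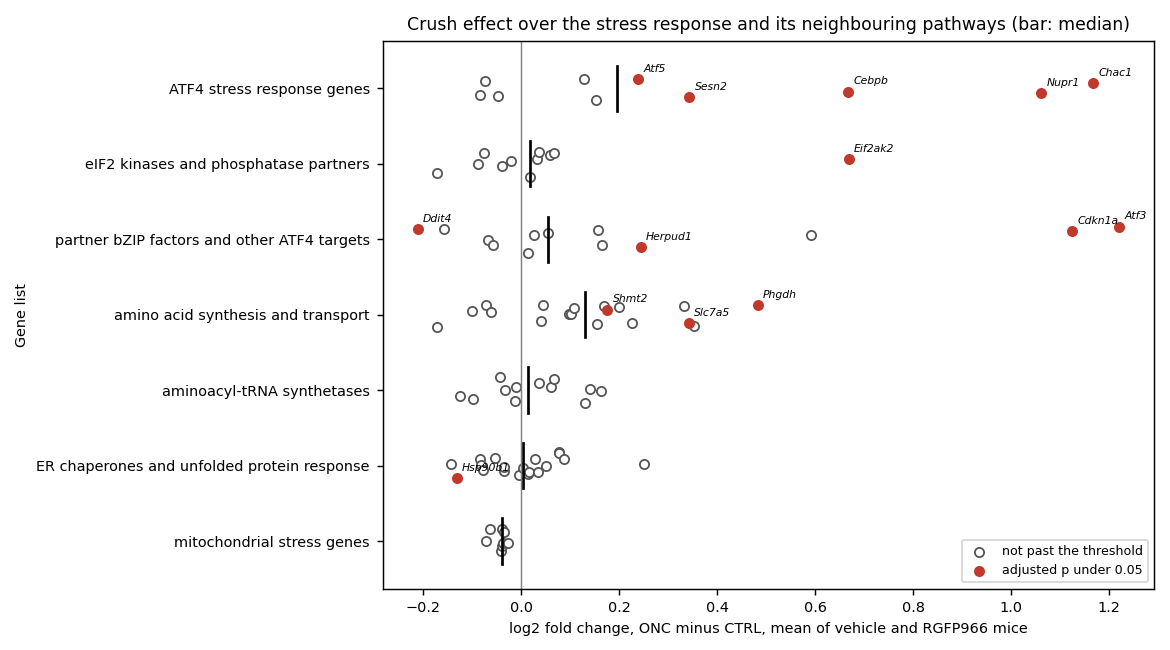
Crush effect averaged over vehicle and RGFP966 mice, as log2 fold change (horizontal axis), of every measured gene in the ATF4 set and the 6 neighbouring lists; filled red points passed an adjusted p of 0.05 and black bars are list medians. Named points show Chac1, Nupr1, Atf3 and Cdkn1a above 1, and the tRNA synthetase, ER chaperone and mitochondrial lists near 0.

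Across the 26 libraries the members did not vary as one block. The closest pair was Nupr1 and Cebpb, with a Pearson r of 0.78 between log2 values, followed by Chac1 and Sesn2 with 0.68, Atf5 and Nupr1 with 0.63 and Asns and Sesn2 with 0.61. The highest r of Psat1 with any other member was 0.02, and that of Atf4 was 0.24, with Sesn2. After group means and sex were taken out, Asns and Sesn2 had an r of 0.63 and Chac1 and Sesn2 one of 0.57, whereas the highest r of Nupr1 was 0.34, with Atf5. Of 12413 genes compared, those most like the mean of the standardized members were Tnfrsf12a (r = 0.83), Atf3 (0.82), Cebpd (0.81), Sox11 (0.81) and Efhd2 (0.80). These correlations are descriptions over 26 points that share crush status, treatment and, in pairs, the animal.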

How the data were processed

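Per the submitters' processing notes, kallisto 0.46.1, DESeq2 and the mouse genome build mm10 (GRCm38) were used; the DESeq2 version is not given in the sources used here. Values as deposited are a signal, DESeq2-normalized counts of 35999 rows in 28 columns, and depth in reads is not given. Only part of the low values, 45.2 to 64.4% per library, lay within 0.05 of a whole multiple of 1 step. As the values are normalized and not raw counts, no test on read counts was run. One column name occurs 2 times; these 2 columns were not used, which removed 1 vehicle female. Another 26 rows with date-like names, 0.115% of the total, were left out.

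Values were taken as log2(value + 1), a scale that understates changes of low genes. Genes with a mean of at least 10 were fitted with limma 3.58.1 (R 4.3.3; 4 groups plus sex, trended prior, two-sided). The sex contrast used 8 groups. P-values were adjusted by Benjamini-Hochberg over 15773 genes, with 0.05 as the threshold. The fit was tested on simulated data. Retinas are from separate mice apart from the pairs of fellow eyes. The design text says that both eyes share an animal. Which libraries form a pair was read from the treatment, sex and replicate letter in their titles. Over genes, deviations of fellow eyes from their group means correlated between -0.301 and 0.208 (median -0.035; over 0.1 in 2 of 13 mice).

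All members are named, with the list genes of smallest p (up to 2 per list), those behind counts of up to 5, and the 5 genes most like the members. Members and lists were chosen with earlier results of these data known. Alternatives changed the pseudocount, filter, scaling, covariates, replicate block, groups fitted, prior and weights, and left out each library. Promoters are RefSeq's, positions of genes and shared exons GENCODE vM21's.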

Additional observations from a re-analysis of the deposited data

Results flagged for a closer look

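For each member, the highest and the lowest library of each group were compared with the rest of that group, 40 groups in all. In 6 of them 1 library stood apart by Dixon's criterion, and chance alone flags about 1 group in 20. Atf4 was 4629 in vehicle CTRL male D, where the others lay between 3635 and 3727, and without this library its crush effect in vehicle mice was 0.00 (log2), still not past the threshold. Atf5 was 516.6 in RGFP966 ONC female B (others 387 to 442). Without it the crush effect of Atf5 in RGFP966 mice was 0.03 and the difference between the crush effects -0.37. Chac1 was 77.58 in vehicle ONC male B (others 38.5 to 45.7). Without it the rise of Chac1 in vehicle mice was 1.36, still past the threshold, and its drug difference in crushed eyes turned from -0.11 to 0.02, neither past it. Nupr1 was 130.8 in vehicle CTRL female A (others 67.4 to 84.0), and its rise in vehicle mice was 1.11 without it. Cebpb was 71.86 in RGFP966 CTRL female A, the library whose description mentions crush (others 52.6 to 60.7), and its rise in RGFP966 mice was 0.72 without it. Psat1 was 729.1 in vehicle ONC female A (others 592 to 626), and its log2 fold change in vehicle mice was -0.15 without it.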

How the results depend on the processing

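Members called for crush numbered 3 to 5 in vehicle mice, 2 to 4 in RGFP966 mice and 4 to 5 in the average over all alternatives. The count of 4 in RGFP966 mice came with array weights, which added Chac1 and Sesn2, and 4 in the average with a mean of at least 50, which Chac1 does not reach. Leaving out 1 library at a time gave 4 to 5, 2 to 3 and 5. Sesn2 passed in vehicle mice without vehicle CTRL female C (adjusted p = 0.034), vehicle CTRL male B (0.042), RGFP966 ONC male A (0.048) or RGFP966 ONC male C (0.036), and in RGFP966 mice without RGFP966 ONC male A (0.030), RGFP966 CTRL male B (0.042) or vehicle CTRL male C (0.046). The mouse as a fixed replicate block called 766, 687 and 1694 genes in vehicle mice, RGFP966 mice and the average, against 842, 737 and 1855 without it. It added Sesn2 (0.357 and 0.328) and changed no other member's call; for drug effects between mice it could not be fitted. With the mouse as a random effect, 4, 2 and 5 members were called, and Sesn2 did not pass in either treatment (adjusted p = 0.067 and 0.077). Drug and sex contrasts called 0 genes in every alternative run.

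Of 2663 member values over the alternatives, 77 changed sign, and 0 of these were called as reported or under the alternative. Rescaling to one total moved the median of all genes for crush in vehicle mice from -0.011 to 0.103 and raised the share of higher calls from 69.1 to 91.0% (RGFP966 mice 71.5 to 85.4%, average 57.6 to 86.1%). It turned crush values of Atf4 (0.060), Asns (0.089) and Psat1 (0.004) in vehicle mice, Trib3 (0.048) and Psat1 (0.016) in RGFP966 mice, and Atf4 (0.020), Ppp1r15a (0.046) and Psat1 (0.010) in the average. It also turned Sesn2 for the drug in uncrushed eyes (0.005), Cebpb for the difference of crush effects (-0.025) and Trib3 for sex (-0.002). Quantile normalization turned Atf4 in vehicle mice (0.020), and array weights turned Ppp1r15a for the drug in uncrushed eyes (0.118) and Sesn2 for the difference of crush effects (0.002). The cause was not tested.

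Leaving out 1 library gave these ranges where a sign changed. For crush they were -0.120 to 0.071 for Asns in vehicle mice, -0.027 to 0.193 for Ppp1r15a and -0.115 to 0.052 for Trib3 in RGFP966 mice, and -0.130 to 0.013 for Ppp1r15a in the average. For the drug in crushed eyes they were -0.009 to 0.147 for Cebpb, -0.287 to 0.051 for Chac1, -0.088 to 0.064 for Nupr1 and -0.028 to 0.108 for Trib3. In uncrushed eyes they were -0.028 to 0.098 for Cebpb, -0.226 to 0.074 for Ppp1r15a and -0.103 to 0.023 for Sesn2. For the difference of crush effects they were -0.090 to 0.022 for Atf4, -0.056 to 0.105 for Cebpb and -0.094 to 0.043 for Sesn2. For sex they were -0.101 to 0.027 for Atf4, -0.152 to 0.247 for Chac1, -0.025 to 0.402 for Nupr1, -0.574 to 0.071 for Ppp1r15a, -0.032 to 0.121 for Sesn2 and -0.130 to 0.165 for Trib3. Depth in reads is unknown. The widest intervals for crush were those of Chac1, the member with the lowest counts, and Ppp1r15a.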
